A study of Arabidopsis thaliana with 8 samples.

Results

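The genes described here are the plastid-encoded genes of Arabidopsis that serve gene expression and tasks outside the photosynthetic complexes: ribosomal proteins (rpl and rps), subunits of the plastid RNA polymerase (rpo), and ycf3, ycf4, accD, clpP, matK, ccsA and cemA. The rule that picks them reads the array annotation and no measured value, and takes the probe sets that name exactly 1 plastid gene other than the psa, psb, pet, ndh, atp and rbcL genes. Of 34 plastid genes of this kind by symbol, 26 were measured, each by 1 probe set, out of 22746 probe sets tested. Another 6 genes lie in the duplicated part of the plastid genome and are read only by 7 probe sets that name both copies. The rest were not analysed here.

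Plastids keep a small genome of bacterial descent, and its genes are read by 2 kinds of RNA polymerase. The plastid-encoded enzyme, built from the products of rpoA, rpoB, rpoC1 and rpoC2 with nuclear sigma factors, transcribes most photosynthesis genes, whereas a nuclear-encoded phage-type enzyme transcribes the rpoB operon and accD in particular. Most plastid genes are transcribed together with their neighbours and cut into smaller RNAs afterwards, and their messages are translated on a bacterial type of ribosome to which both the plastid and the nuclear genome contribute proteins.

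Whole Columbia seedlings were taken at an age of 14 days, and their RNA was measured on 8 ATH1 arrays, 2 in each of 4 groups. The groups were seedlings of a line that overexpresses the rice serine hydroxymethyltransferase gene OsSHMT3 (OE) after 24 h of 150 mM NaCl, OE seedlings without NaCl (control), wild-type seedlings after the same NaCl treatment, and wild-type control seedlings. The transgene stood under the pENTCUP2 promoter in the pORE-E2 vector, and the study used plants of the T3 generation. The line on the arrays is given as OE3 in one place of the methods and as OE5 in another, and either is 1 transformed line, so that OsSHMT3 and other features of that line cannot be told apart. The level of the rice transgene itself was not analysed here. Values are on the log2 scale of the deposited table, so a difference of 1 is a doubling, and the level of one probe set says nothing of the level of another. Labelling with the IVT Express kit starts from an oligo-dT primer, and most plastid messages carry no long poly(A) tail. Its part in the values was not tested. As whole seedlings were measured, fewer cells with green plastids and less plastid RNA per cell cannot be told apart.

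The replicate arrays of OE differed from each other more than those of wild-type. Over all probe sets the difference between the 2 arrays had an SD of 0.551 in OE NaCl, 0.430 in OE control, 0.116 in wild-type NaCl and 0.213 in wild-type control. Over the 26 plastid genes the SDs were 0.383, 0.386, 0.110 and 0.198 in the same order, and replicate 2 of OE NaCl lay above replicate 1 by a median of 0.296. The comparisons below rest on limma, in which every group has its mean and the 8 arrays share 1 spread. The words higher, lower, rose and fell are used as calls where the p adjusted over all probe sets tested was under 0.05. The methods speak of biological replicates for the experiments in general and of triplicate RNA, but neither they nor the labels say whether the 2 arrays of a group came from different cultures. The p-values therefore rest only on how far these arrays lie apart, which may be technical. Of the markers of green tissue 4 of 24 were measured, of root 3 of 14, of maturing seed 1 of 14 and of senescence 0 of 7.

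After NaCl, 5 of the 26 genes fell in wild-type and none did in OE. The 5 were accD, cemA, rps14, rpl36 and rpl20, which is 19.2% of the genes, where 2.56% of all probe sets were called lower. In wild-type no gene of the 26 was called higher, against 3.26% of all probe sets. Beyond the calls, both NaCl arrays lay below both control arrays in 21 of the 26 genes in wild-type, or 80.8%, where 38.1% of all probe sets did so, and above them in 0 genes, where 26.8% did. The median log2 difference over the 26 genes was -0.23 in wild-type, beside -0.05 over all probe sets. With each array centred on the photosynthesis genes of the plastid genome it was 0.10, and 2 genes were called lower, accD and cemA. Of the 5 calls, 0 were left without wild-type NaCl replicate 1, wild-type NaCl replicate 2 or wild-type control replicate 1, and 1, accD, without wild-type control replicate 2.

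In OE, limma called 0 genes higher and 0 lower after NaCl, where 4.88% of all probe sets were called higher and 2.33% lower. At an unadjusted P under 0.05, cemA and rpl36, 2 of the 26, were below OE control in OE NaCl and 0 were above it. Of all 22746 probe sets, 2403 were below and 3043 above. Both NaCl arrays lay below both control arrays in 6 genes, or 23.1%, against 20.3% of all probe sets, and above them in 1 gene, or 3.85%, against 23.1% of all probe sets. The share lying below was thus near that of all probe sets. The median difference was -0.15 in OE, beside 0.01 over all probe sets, and it moved to 0.05 without OE NaCl replicate 1 and to -0.34 without OE NaCl replicate 2.

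The genotypes differed in 6 genes without NaCl and in 4 under NaCl. In control seedlings rpl33, cemA, rpoC2 and accD were higher in OE than in wild-type, which is 15.4% of the genes against 8.1% of all probe sets, and rps16 and rpl36 were lower, which is 7.69% against 12.0%. Under NaCl cemA, accD, rpl33 and rpoC2 were higher in OE, again 15.4% and now against 4.12% of all probe sets, and 0 were called lower, against 4.92%. At an unadjusted P under 0.05, rpl36 alone was lower in OE under NaCl and 7 genes were higher, where 2890 and 2512 of 22746 probe sets were. Both OE arrays lay above both wild-type arrays in 5 genes (19.2%) in control and 10 genes (38.5%) under NaCl, where 33.3% and 32.6% of all probe sets did. They lay below in 11 genes (42.3%) in control and 3 genes (11.5%) under NaCl, against 36.3% and 27.5% of all probe sets. The median difference was near 0 in both, at 0.02 in control and -0.01 under NaCl, and with each array centred on all probe sets that in control was 0.27.

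The NaCl response itself was then compared between the genotypes, as the difference in OE minus the difference in wild-type. This interaction was called in 0 of the 26 genes in either direction, where 1.23% of all probe sets were called higher and 0.422% lower. At an unadjusted P under 0.05 it was above 0 in 3 genes, rps14, accD and cemA, and below 0 in 0. Of all 22746 probe sets, 1796 and 1125 were so. Regardless of P, it was above 0 in 19 of 26 genes with a median of 0.22, beside 0.03 over all probe sets. The share of all probe sets above 0 was not counted. Without OE NaCl replicate 1 it was called higher in 5 genes, rps16, rpl16, rps14, accD and cemA, and with an intensity trend in the spread it was called in accD (adjusted p = 0.0389). That a gene was called in wild-type and not in OE does not show that the 2 responses differ.

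**Figure D1:**
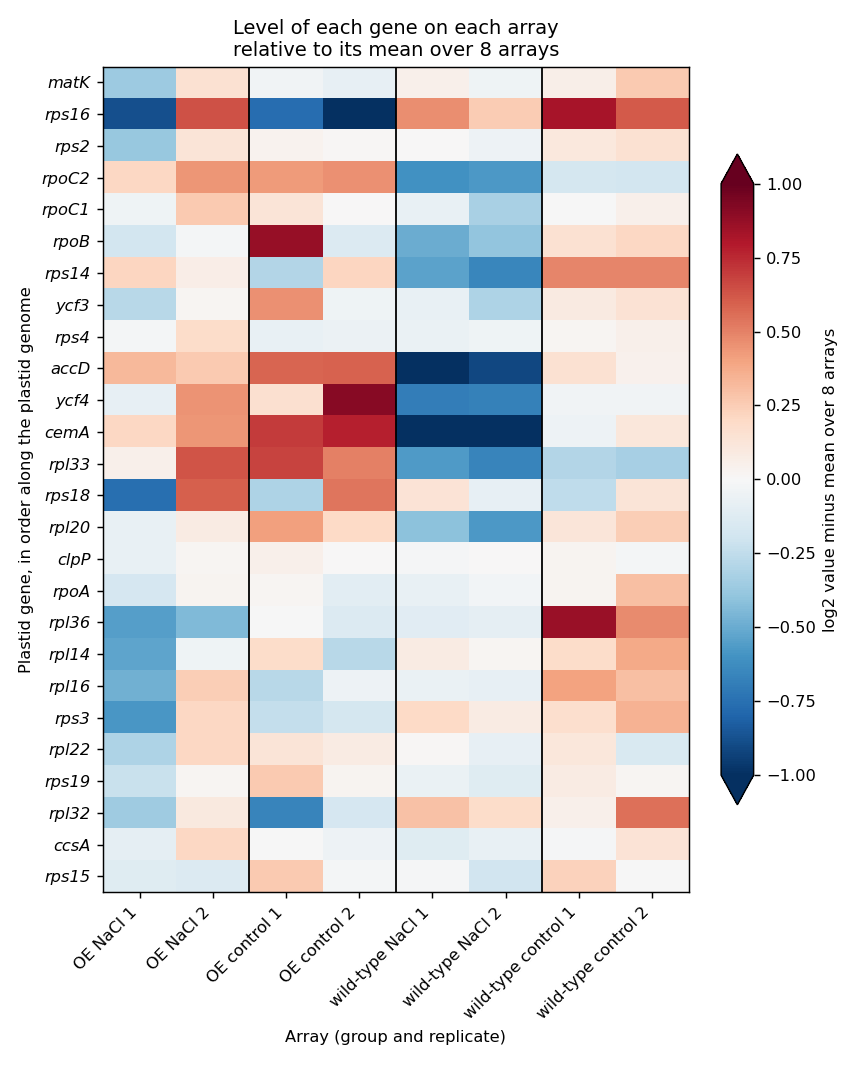
Levels of the 26 plastid genes on the 8 arrays, drawn as the log2 value minus the gene's mean over all arrays (colour scale from -1 to 1, larger deviations take the end colours). Genes run down the page in their order along the plastid genome and arrays run from OE NaCl to wild-type control; accD and cemA are darkest blue in the 2 wild-type NaCl arrays, and replicate 2 of OE NaCl is above replicate 1 by a median of 0.296.

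**Figure D2:**
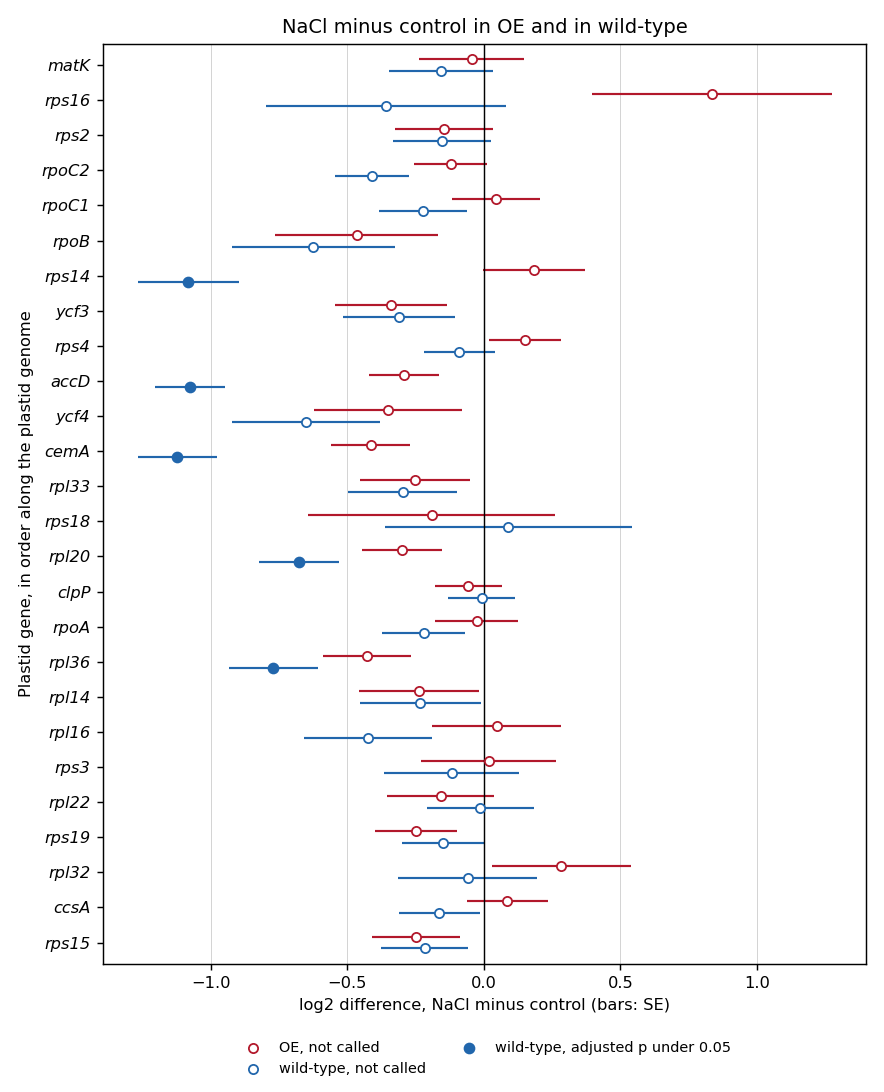
Difference between NaCl and control for each of the 26 genes in OE (red) and wild-type (blue), as log2 differences with their SE. Filled points are called at an adjusted p under 0.05: the 5 filled points are all in wild-type and all below 0, from -1.12 in cemA to -0.68 in rpl20.

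The largest differences under NaCl between OE and wild-type were those of cemA and accD, which lie in the cluster accD, psaI, ycf4, cemA and petA (order along the plastid genome, TAIR10.1 assembly). accD (plastid genome positions 57075 to 58541) encodes the carboxyltransferase beta subunit of acetyl-CoA carboxylase, which makes malonyl-CoA for fatty acid synthesis. Its log2 values were 9.55 and 9.49 in OE NaCl, 9.81 and 9.81 in OE control, 8.18 and 8.32 in wild-type NaCl and 9.38 and 9.27 in wild-type control. The wild-type NaCl arrays stood below every other array, and the OE arrays were above the wild-type arrays in both conditions. After NaCl accD fell by 1.08 ± 0.13 (SE, adjusted p = 0.00433) in wild-type, whereas in OE the difference was -0.29 ± 0.13 (adjusted p = 0.223, 95% interval -0.59 to 0.01). OE exceeded wild-type by 1.28 ± 0.13 under NaCl (adjusted p = 0.00141), which is 2.42-fold, and by 0.49 ± 0.13 in control (adjusted p = 0.0390). The control call was lost with only the 4 arrays compared (adjusted p = 0.0590), array weights (0.0612), the replicate block (0.0617) and centring on photosynthesis genes (0.104). The interaction was 0.78 ± 0.18 (adjusted p = 0.113).

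cemA (60741 to 61430) encodes a protein of the plastid envelope membrane. It read 10.46 and 10.70 in OE NaCl, 10.95 and 11.03 in OE control, 9.11 and 9.21 in wild-type NaCl and 10.20 and 10.37 in wild-type control. The 4 groups did not overlap, with OE control highest and wild-type NaCl lowest. cemA fell by 1.12 ± 0.15 after NaCl in wild-type (adjusted p = 0.00625), and in OE the difference was -0.41 ± 0.15 (adjusted p = 0.141). OE was higher than wild-type by 1.41 ± 0.15 under NaCl (adjusted p = 0.00154), or 2.66-fold, and by 0.71 ± 0.15 in control (adjusted p = 0.0209). The interaction of cemA was 0.71 ± 0.21 (adjusted p = 0.202).

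ycf4 (59772 to 60326), whose product helps to assemble photosystem I, lies between them and was called in 0 of the 5 comparisons as deposited and with all arrays. Its values were 8.92 and 9.45 in OE NaCl, 9.16 and 9.92 in OE control, 8.31 and 8.33 in wild-type NaCl and 8.97 and 8.97 in wild-type control. The order of the group means was that of cemA, but the OE arrays spread widely and overlapped between NaCl and control. Under NaCl, OE minus wild-type was 0.87 ± 0.27 (adjusted p = 0.105, and called at 0.0472 without either OE control array), and NaCl minus control in wild-type was -0.65 ± 0.27 (adjusted p = 0.281). Centred on all probe sets, ycf4 was called higher in OE in both conditions (adjusted p = 0.0404 under NaCl and 0.0414 in control), and it was called lower after NaCl in wild-type with array weights (0.00304) and with only the 4 arrays compared (0.00157).

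The photosynthesis genes of the same cluster were read for comparison. psaI (59247 to 59360), a small subunit of photosystem I, stood at 11.88 and 12.15 in OE NaCl, 12.04 and 11.93 in OE control, 11.24 and 11.22 in wild-type NaCl and 11.79 and 12.05 in wild-type control. It was higher in OE than in wild-type under NaCl by 0.78 ± 0.16 (adjusted p = 0.0250), and its difference after NaCl in wild-type was -0.69 ± 0.16 (adjusted p = 0.0506). petA (61657 to 62619), the cytochrome f gene at the end of the cluster, read 11.91 and 12.13 in OE NaCl, 12.02 and 12.01 in OE control, 11.76 and 11.79 in wild-type NaCl and 11.92 and 12.32 in wild-type control. It was not called in any comparison, and OE minus wild-type under NaCl was 0.25 ± 0.17 (adjusted p = 0.398). In all 5 genes of the cluster the wild-type NaCl arrays were the lowest of the 8, a pattern most pronounced within the cluster in accD and cemA. It was not particular to the cluster, as it also held in rps14, rpl20, rpl33 and rpoC2, among others. Differences after NaCl in wild-type reached -1.41 among the plastid photosynthesis genes.

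**Figure D3:**
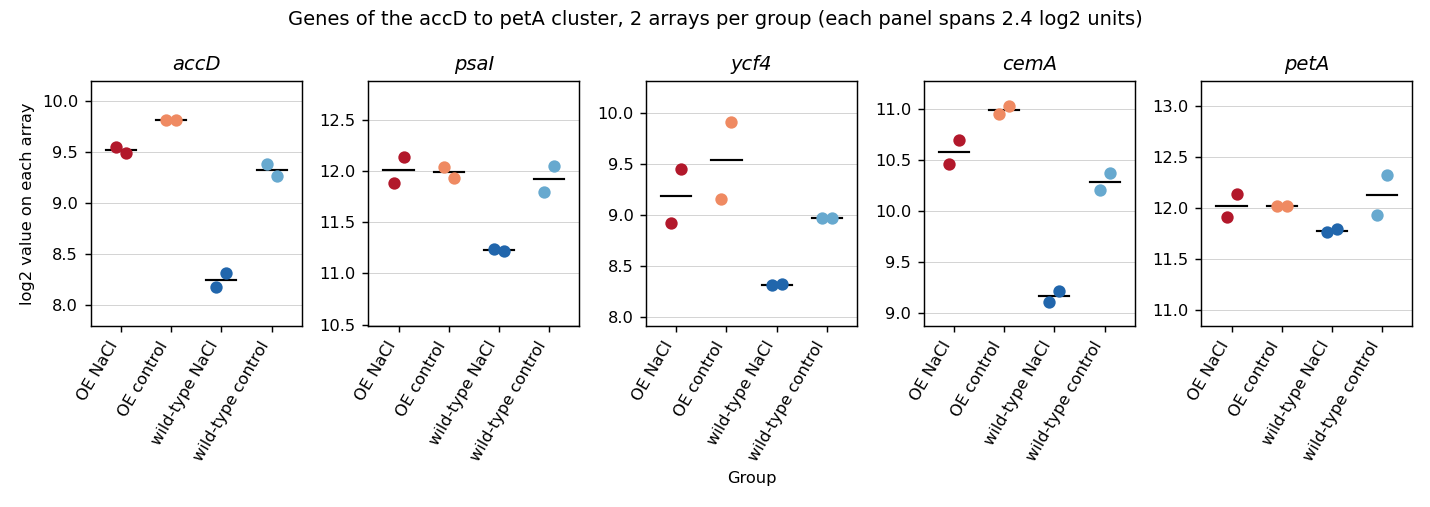
Log2 values on each array for the 5 genes of the cluster, in their order along the plastid genome, with 2 points per group and a line at the group mean. Every panel spans the same number of log2 units around its own centre; wild-type NaCl is the lowest group in all 5 genes, at means of 8.25 in accD and 9.16 in cemA.

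The calls of accD and cemA depended on single arrays in part. OE minus wild-type under NaCl stayed called in both genes without any 1 of the 8 arrays (highest adjusted p 0.0321 in accD and 0.0306 in cemA, both without wild-type NaCl replicate 1). After NaCl in wild-type, the call of cemA was lost without any 1 wild-type array, with adjusted p of 0.105 and 0.0781 without wild-type NaCl replicate 1 and 2 and of 0.0508 and 0.0769 without wild-type control replicate 1 and 2. That of accD was lost without wild-type NaCl replicate 1 (adjusted p = 0.0925), wild-type NaCl replicate 2 (adjusted p = 0.0602) and wild-type control replicate 1 (adjusted p = 0.0600). The log2 differences themselves stayed between -1.20 and -1.04 in cemA and between -1.15 and -1.01 in accD.

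The 15 ribosomal protein genes, 8 of the small and 7 of the large subunit, split between genes that moved and genes that did not pass the test. After NaCl in OE, 0 were called, against 4.88% of all probe sets called higher and 2.33% lower. In wild-type 3 fell, rps14, rpl36 and rpl20, which is 20.0% against 2.56% of all probe sets. Between OE and wild-type in control 1 was higher (rpl33, 6.67% against 8.1%) and 2 were lower (rps16 and rpl36, 13.3% against 12.0%). These control shares were near those of all probe sets. Under NaCl 1 was higher (rpl33, 6.67% against 4.12%). Both NaCl arrays lay below both control arrays in 4 of the 15 in OE (26.7% against 20.3% of all probe sets). In wild-type they did so in 11 of the 15 (73.3% against 38.1%).

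rps14 (36938 to 37240), a protein of the small subunit, read 7.24 and 7.09 in OE NaCl, 6.73 and 7.23 in OE control, 6.49 and 6.37 in wild-type NaCl and 7.51 and 7.51 in wild-type control. The wild-type arrays were apart by NaCl, while the OE arrays overlapped. rps14 fell by 1.08 ± 0.19 after NaCl in wild-type (adjusted p = 0.0193), and in OE the difference was 0.18 ± 0.19 (adjusted p = 0.584, 95% interval -0.25 to 0.62). Its interaction, 1.27 ± 0.26, was the largest of the 26 genes and did not pass the limit (adjusted p = 0.0817). OE was below wild-type in control and above it under NaCl on both arrays, by -0.53 ± 0.19 (adjusted p = 0.0816) and 0.73 ± 0.19 (adjusted p = 0.0558), neither of them called. The difference under NaCl was called with quantile normalization (adjusted p = 0.0409), centring on all probe sets (0.0386), the filter at the 25th percentile (0.0433) and without either OE control array (0.0213) or OE NaCl replicate 2 (0.0351), and that in control without OE control replicate 2 (0.0257). Without OE control replicate 2 the interaction was called (1.52, adjusted p = 0.0290), and without OE NaCl replicate 1 it was called as well (1.19, adjusted p = 0.0499).

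rps14 is the last gene of the unit psaA, psaB, rps14, in which psaA and psaB encode the core of photosystem I. psaB, its neighbour, read 13.05 and 13.35 in OE NaCl, 13.21 and 13.19 in OE control, 13.19 and 13.17 in wild-type NaCl and 13.27 and 13.24 in wild-type control, and its NaCl difference in wild-type was -0.07 ± 0.14 (adjusted p = 0.932). psaA, named after its values were seen, fell after NaCl in wild-type by 0.76 (adjusted p = 0.0301) and was higher in OE than in wild-type by 2.08 under NaCl (adjusted p = 0.000318) and by 1.80 in control (adjusted p = 0.00114). Of the 5 comparisons, psaB was called in 0.

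rpl36 (79489 to 79602) and rpl20 (68512 to 68865), both of the large subunit, also fell after NaCl in wild-type. rpl36 read 10.09 and 10.20 in OE NaCl, 10.64 and 10.51 in OE control, 10.53 and 10.55 in wild-type NaCl and 11.51 and 11.12 in wild-type control. Wild-type control was its highest group, and the other 3 groups lay below it. It fell by 0.77 ± 0.16 in wild-type (adjusted p = 0.0401). In control seedlings OE was lower, with a difference of -0.74 ± 0.16 (adjusted p = 0.0254), and after NaCl in OE the difference was -0.43 ± 0.16 (adjusted p = 0.169). The call after NaCl in wild-type was lost when 1 array of wild-type (adjusted p from 0.0738 to 0.321) or 1 of OE control (adjusted p = 0.0534) was left out, and with the replicate block (0.0667). The control call was lost with centring on all probe sets (0.0702).

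rpl20 read 8.57 and 8.73 in OE NaCl, 9.05 and 8.84 in OE control, 8.23 and 8.07 in wild-type NaCl and 8.77 and 8.89 in wild-type control. NaCl arrays were below control arrays in both genotypes. The fall in wild-type was 0.68 ± 0.15 (adjusted p = 0.0439), and the difference in OE was -0.30 ± 0.15 (adjusted p = 0.266). With the replicate block the wild-type call of rpl20 was lost (adjusted p = 0.0853). The wild-type calls of rpl20 and of rps14 were both lost without any 1 wild-type array, with adjusted p of 0.411 and 0.200 without wild-type NaCl replicate 2, of 0.255 and 0.150 without wild-type NaCl replicate 1, of 0.182 and 0.143 without wild-type control replicate 1 and of 0.270 and 0.149 without wild-type control replicate 2.

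rpl33 (67488 to 67688), a large-subunit protein, was higher in OE in both conditions. It read 11.05 and 11.62 in OE NaCl, 11.68 and 11.50 in OE control, 10.43 and 10.34 in wild-type NaCl and 10.70 and 10.66 in wild-type control. All 4 OE arrays were above all 4 wild-type arrays. After NaCl in wild-type it was called lower with only the 4 arrays compared (-0.30, adjusted p = 0.0429) and not as deposited with all arrays (adjusted p = 0.581). OE minus wild-type was 0.95 ± 0.20 under NaCl (adjusted p = 0.0299), or 1.93-fold, and 0.91 ± 0.20 in control (adjusted p = 0.0254). Under NaCl the call was lost when 1 wild-type array was left out (adjusted p of 0.180 and 0.224 without wild-type NaCl replicate 1 and 2, and 0.0763 without either wild-type control array), and also with only the 4 arrays compared (0.130) and the replicate block (0.0508). rps18, which follows rpl33 in the same unit, was not called in any comparison and read 9.34 and 10.69 on the 2 arrays of OE NaCl alone.

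rps16 (5084 to 6188) was the gene with the largest genotype difference in control. It read 4.84 and 6.36 in OE NaCl, 4.96 and 4.58 in OE control, 6.19 and 5.98 in wild-type NaCl and 6.55 and 6.34 in wild-type control. In control both OE arrays were below both wild-type arrays, and the 2 arrays of OE NaCl lay further apart than any other pair of replicates among the 26 genes. The signal of rps16 was low throughout. It was below the median of all probe sets on both OE control arrays (medians 6.00 and 6.08) and on OE NaCl replicate 1 (6.10). The same held on both wild-type NaCl arrays (6.331 and 6.325). It was little above the median on OE NaCl replicate 2 (6.32) and on the wild-type control arrays (6.32 and 6.27). OE minus wild-type in control was -1.67 ± 0.44 (adjusted p = 0.0396), 3.19-fold lower and not called with the replicate block (0.0508), and under NaCl the difference was -0.48 ± 0.44 (adjusted p = 0.521). After NaCl in OE the difference was 0.83 ± 0.44 (adjusted p = 0.297). Without OE NaCl replicate 1 it was 1.59 and called (adjusted p = 0.00445), the 1 array whose loss brought a call higher after NaCl in OE.

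The other ribosomal protein genes, rps2, rps3, rps4, rps15, rps18, rps19, rpl14, rpl16, rpl22 and rpl32, passed the test in 0 of the 5 comparisons as deposited and with all arrays. Among the alternatives with all arrays, rpl32 was called lower in OE in control with an intensity trend (adjusted p = 0.0484) and rpl14 lower in OE under NaCl centred on photosynthesis genes (0.0466), and rpl16 was called lower after NaCl in wild-type with array weights (0.0138), and likewise with the 4 arrays of that comparison alone (0.0122). Under NaCl, rps3 and rps16 were called lower in OE without OE NaCl replicate 2. rps4, a protein of the small subunit, was with accD, cemA and rpl36 among the 4 genes whose arrays were apart in all 4 comparisons, by small steps. It read 12.97 and 13.17 in OE NaCl, 12.91 and 12.92 in OE control, 12.92 and 12.95 in wild-type NaCl and 13.00 and 13.04 in wild-type control. NaCl arrays were above control arrays in OE and below them in wild-type, and the interaction was 0.24 ± 0.18 (adjusted p = 0.656, 95% interval -0.20 to 0.68). In rpl16 and rpl32 the genotypes were apart in control, by -0.51 ± 0.23 (adjusted p = 0.150) and -0.71 ± 0.25 (adjusted p = 0.0846). The genes rpl36, rpl14, rpl16, rps3, rpl22 and rps19 lie in the unit that starts with rpl23 and ends with rpoA. Over these 6 and rpoA, the median difference was -0.16 after NaCl in OE, -0.22 after NaCl in wild-type, -0.33 between OE and wild-type in control and -0.04 under NaCl, with rpl36 the 1 gene of the 7 called.

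The subunits of the plastid RNA polymerase are encoded in 2 places, rpoB, rpoC1 and rpoC2 in 1 operon and rpoA at the end of the ribosomal protein unit. rpoC2 (15938 to 20068), which encodes the beta double-prime subunit, read 9.65 and 9.89 in OE NaCl, 9.88 and 9.91 in OE control, 8.84 and 8.87 in wild-type NaCl and 9.27 and 9.26 in wild-type control. All OE arrays stood above all wild-type arrays, and in wild-type the NaCl arrays were below the control arrays. It was higher in OE by 0.91 ± 0.13 under NaCl (adjusted p = 0.00745), or 1.88-fold, and by 0.62 ± 0.13 in control (adjusted p = 0.0237). The difference after NaCl was -0.41 ± 0.13 in wild-type (adjusted p = 0.156) and -0.12 ± 0.13 in OE (adjusted p = 0.618). That in wild-type was called lower with only the 4 arrays compared (adjusted p = 0.0114) and with array weights (0.00537). Its call under NaCl was lost without either wild-type NaCl array (adjusted p = 0.107 and 0.0966) and with only the 4 arrays compared (0.0561).

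The other subunits were not called as deposited and with all arrays. rpoC1, the beta-prime subunit, read 10.80 and 11.10 in OE NaCl, 10.97 and 10.84 in OE control, 10.76 and 10.51 in wild-type NaCl and 10.84 and 10.89 in wild-type control. rpoB, the beta subunit, read 5.28 and 5.45 in OE NaCl, 6.33 and 5.32 in OE control, 4.96 and 5.07 in wild-type NaCl and 5.62 and 5.67 in wild-type control. Except on OE control replicate 1, rpoB read below the median of all probe sets on the same array. The 3 genes of the operon shared an order, in that both OE arrays were above both wild-type arrays under NaCl and both wild-type NaCl arrays were below both wild-type control arrays. The first held in 10 of the 26 genes and 32.6% of all probe sets, the second in 21 of the 26 and 38.1%. In the operon the differences under NaCl, OE minus wild-type, were 0.91 in rpoC2, 0.34 in rpoB and 0.31 in rpoC1. rpoA, the alpha subunit, differed by -0.02 ± 0.15 between OE and wild-type under NaCl (adjusted p = 0.960). Replicate 1 of OE control stood apart in rpoB. Without OE control replicate 2, which left that array alone, rpoB was called lower after NaCl in OE (-0.97, adjusted p = 0.0228) and higher in OE than in wild-type in control (0.69, adjusted p = 0.0348). After NaCl in wild-type rpoB was called lower with only the 4 arrays compared (-0.62, adjusted p = 0.00248), with array weights (0.00797) and without either OE control array (0.0467).

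**Figure D4:**
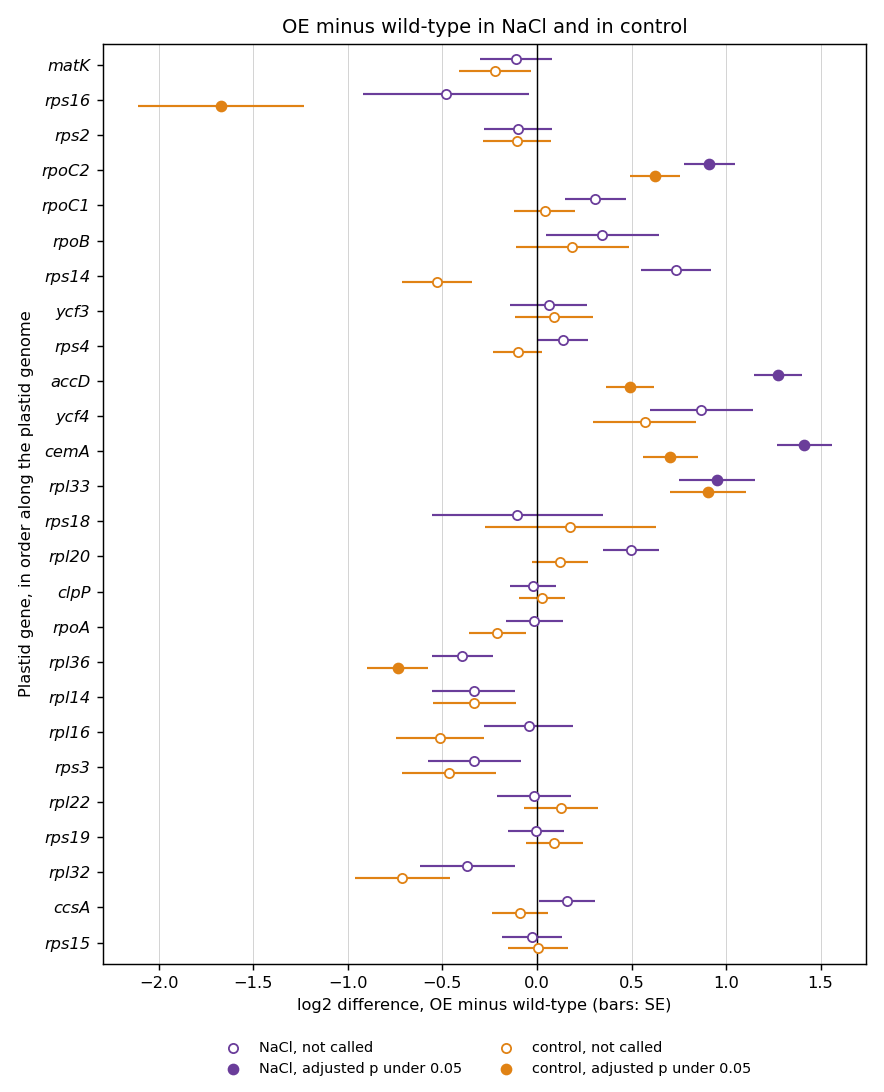
Difference between OE and wild-type for each of the 26 genes under NaCl (purple) and in control (orange), as log2 differences with their SE. Filled points are called at an adjusted p under 0.05: accD, cemA, rpl33 and rpoC2 are filled above 0 in both conditions, and rps16 and rpl36 are filled below 0 in control.

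In the control comparison, each call was lost without either wild-type NaCl array, wild-type control array or OE control replicate 1. Without wild-type control replicate 1 the adjusted p was 0.150 for cemA, 0.140 for rpoC2, 0.146 for rpl33, 0.153 for accD, 0.159 for rpl36 and 0.206 for rps16. Without wild-type control replicate 2 the lowest was 0.0525, for rpl36, and without OE control replicate 1 it was 0.0564, for cemA. Without OE control replicate 2 rpl33 and rpoB were called higher and rps14 lower, and the adjusted p of the other 5 genes ran from 0.0501, for rpoC2 and cemA, to 0.118, for rps16. Leaving out a wild-type NaCl array, which is not part of that comparison, changes only the shared spread, and the lowest adjusted p was then 0.0630, for cemA. Without either OE NaCl array, 5 genes were lower in control, rpl16, rps3 and rpl32 beside rps16 and rpl36. With all arrays, the adjusted p of the 6 control calls ran from 0.0209 to 0.0396.

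The remaining single genes were read in roles outside transcription and translation, and none was called. clpP, the plastid-encoded proteolytic subunit of the Clp protease, had the narrowest range of the 26, with 12.49 and 12.58 in OE NaCl, 12.62 and 12.57 in OE control, 12.55 and 12.57 in wild-type NaCl and 12.59 and 12.55 in wild-type control. Its arrays overlapped in all 4 comparisons. Its 95% intervals were -0.34 to 0.23 after NaCl in OE, -0.29 to 0.28 after NaCl in wild-type, -0.26 to 0.31 between OE and wild-type in control and -0.31 to 0.26 under NaCl. clpP lies beside rpl20, which fell after NaCl in wild-type.

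matK, the maturase gene inside the trnK intron, read 11.11 and 11.63 in OE NaCl, 11.44 and 11.39 in OE control, 11.52 and 11.44 in wild-type NaCl and 11.54 and 11.74 in wild-type control. ccsA, whose product attaches haem to c-type cytochromes, read 12.36 and 12.65 in OE NaCl, 12.44 and 12.40 in OE control, 12.32 and 12.37 in wild-type NaCl and 12.44 and 12.59 in wild-type control. In both genes the OE arrays overlapped after NaCl while the wild-type NaCl arrays were below the control arrays by small steps, -0.16 ± 0.19 in matK (adjusted p = 0.851) and -0.16 ± 0.15 in ccsA (adjusted p = 0.744). ycf3, a second assembly factor of photosystem I, read 9.90 and 10.20 in OE NaCl, 10.64 and 10.14 in OE control, 10.10 and 9.87 in wild-type NaCl and 10.27 and 10.33 in wild-type control. Its differences after NaCl were alike in size, -0.34 ± 0.20 in OE (adjusted p = 0.357) and -0.31 ± 0.20 in wild-type (adjusted p = 0.570).

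The 43 measured photosynthesis genes of the plastid genome served as the nearest comparison, with the caveat that the same arrays and controls enter both. After NaCl in OE 0 of the 43 were called (median -0.05), and at an unadjusted P under 0.05 1 was higher and 6 were lower. Of all 22746 probe sets, 4.88% were called higher and 2.33% lower there, and 3043 and 2403 passed the unadjusted limit. After NaCl in wild-type 1 of the 43 was called higher (2.33%) and 6 lower (14.0%), with a median of -0.35. Of all probe sets 3.26% were called higher and 2.56% lower, and of the 26 genes 19.2% were called lower. Between OE and wild-type in control (median -0.07), 10 of the 43 were higher (23.3% against 8.1% of all probe sets). In the same comparison 6 were lower (14.0% against 12.0%), a share near that of all probe sets. Under NaCl (median 0.23) 11 were higher (25.6% against 4.12%) and 0 lower (against 4.92%). At an unadjusted P under 0.05, 4 were lower under NaCl, where 2890 of 22746 probe sets were. The differences of the 43 ran from -0.89 to 2.1 under NaCl, where the 26 genes ran from -0.48 to 1.41. The median interaction was 0.27, beside 0.22 in the 26 genes. Whether the 2 sets of plastid genes differ from each other was not tested. Of the 7 probe sets that name both copies of a duplicated gene, 1 (14.3%) was called lower after NaCl in wild-type, against 2.56% of all probe sets. In OE 0 were called after NaCl, with 2 lower at an unadjusted P under 0.05, where 2403 of 22746 were. Between OE and wild-type in control 3 were higher (42.9% against 8.1%) and 1 lower (14.3% against 12.0%). Under NaCl 2 were higher (28.6% against 4.12%).

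**Figure D5:**
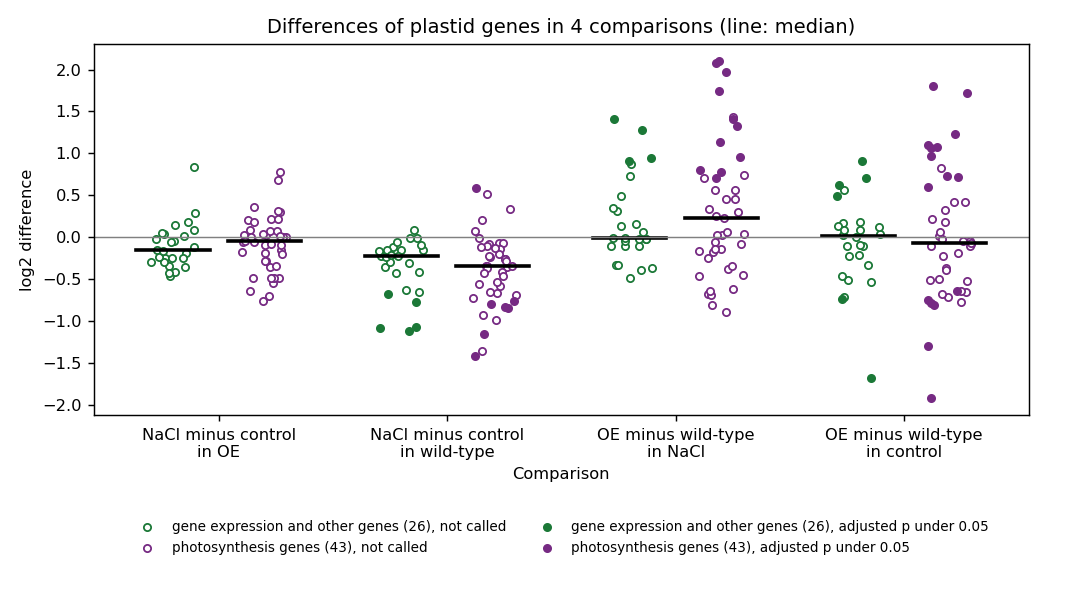
Log2 differences of the 26 plastid genes for gene expression and other tasks (green) and of the 43 plastid photosynthesis genes (purple) in 4 comparisons, 1 point per gene with the median as a line. Filled points are called at an adjusted p under 0.05; after NaCl in wild-type both medians lie below 0, at -0.23 and -0.35, and after NaCl in OE no point is filled.

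On a scale set by the photosynthesis genes, with each array centred on their median, the NaCl difference of the 26 genes in wild-type had a median of 0.10, and accD and cemA stayed called lower there (adjusted p = 0.0448 and 0.0213), whereas rps14, rpl36 and rpl20 were not called (adjusted p = 0.102, 0.205 and 0.233). The array medians of the 26 genes were 10.53 and 10.90 in OE NaCl, 10.72 and 10.93 in OE control, 10.48 and 10.43 in wild-type NaCl and 10.77 and 10.78 in wild-type control. Those of the 43 photosynthesis genes were 10.37 and 10.67 in OE NaCl, 10.59 and 10.48 in OE control, 10.18 and 10.23 in wild-type NaCl and 10.49 and 10.58 in wild-type control. In both sets the wild-type NaCl arrays had the lowest medians of the 8.

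Across the 26 genes, the NaCl differences in OE and in wild-type had a Pearson's r of 0.28 and a Spearman's rho of 0.41, beside 0.34 and 0.35 over all probe sets. These are descriptions across genes on the same 8 arrays, and genes are not independent replicates.

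Nuclear genes that work with the plastid genes were read from lists, of which few members carry a probe set that names them alone. Of the nuclear-encoded plastid ribosomal proteins 10 of 38 were measured. After NaCl in OE 0 were called (median -0.22), against 4.88% of all probe sets called higher and 2.33% lower. At an unadjusted P under 0.05, 2 were lower there, where 2403 of 22746 probe sets were. In wild-type 1 was called lower (10.0% against 2.56% of all probe sets, median -0.38). There 9 of 10 (90.0% against 38.1%) had both NaCl arrays below both control arrays. Between OE and wild-type 0 were called in control, against 8.1% of all probe sets called higher and 12.0% lower. At an unadjusted P under 0.05, 1 was higher and 2 were lower in control, where 3973 and 4919 of 22746 were. Under NaCl 1 was called higher (10.0% against 4.12%, median 0.17). Of the nuclear Clp protease genes 6 of 15 were measured, and 0 were called after NaCl in either genotype. Of all probe sets 4.88% were called higher and 2.33% lower in OE, and 3.26% and 2.56% in wild-type. At an unadjusted P under 0.05, 0 of the 6 differed in OE and 1 was higher in wild-type, where 1949 of 22746 probe sets were. So few genes with 0 calls do not depart from those shares. Between OE and wild-type in control, 1 of these 6 was higher (16.7% against 8.1% of all probe sets) and 2 were lower (33.3% against 12.0%). Under NaCl 0 were called, against 4.12% of all probe sets called higher and 4.92% lower. At an unadjusted P under 0.05, 1 was lower, where 2890 of 22746 probe sets were. Of 3 genes of plastid cytochrome c assembly 2 were measured, and for CcdA, a thiol carrier of the thylakoid membrane, OE minus wild-type in control was -0.75 ± 0.21 (adjusted p = 0.0483). Of the lists of plastid transcription, photosystem I assembly and envelope import, 1 gene each was measured (of 22, 3 and 9), and of these 3 only MDH of the import list was called, with OE minus wild-type in control at -0.67 (adjusted p = 0.0385). The gene table gives most of these only a locus number, so their place in a list rests on the list. The list of plastid RNA maturation and that of the nuclear acetyl-CoA carboxylase subunits, the partners of accD, had 0 measured genes.

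Markers of tissues moved with some of the same comparisons, and their part in the plastid values was not tested. The mean log2 level of the 4 green tissue markers, LHCB4.1, LHCB4.2, LHCB4.3 and RCA, was 11.53 to 11.58 in OE NaCl, 11.84 to 11.86 in OE control, 11.59 to 11.62 in wild-type NaCl and 11.83 to 11.85 in wild-type control. It was lower under NaCl in both genotypes. LHCB4.3 was called lower in OE (-0.83, adjusted p = 0.0114) and LHCB4.2 in wild-type (-0.55, adjusted p = 0.0426). In wild-type LHCB4.1 overlapped, with means of 13.14 in control and 13.16 under NaCl, and RCA had 12.72 and 12.70. In OE their means were 13.37 and 13.27, and 12.73 and 12.65. Between OE and wild-type 0 of the 4 were called. Of all probe sets 8.1% were called higher and 12.0% lower in control, and 4.12% and 4.92% under NaCl. At an unadjusted P under 0.05, LHCB4.3 was lower in OE under NaCl, where 2890 of 22746 probe sets were. The mean of the 3 root markers, EXPA7, EXPA18 and PYK10, was 6.36 to 6.43 in OE NaCl, 5.89 to 6.04 in OE control, 5.64 to 5.74 in wild-type NaCl and 5.32 in wild-type control. Root markers were thus above wild-type in OE, where EXPA7 was called higher in control (0.83, adjusted p = 0.0267) and PYK10, a root and hypocotyl glucosidase, under NaCl (1.1, adjusted p = 0.0225). PYK10 was higher after NaCl as well, by 1.92 in OE (adjusted p = 0.00304) and 1.32 in wild-type (adjusted p = 0.0149). The other root markers were not called after NaCl and did not share that rise. In OE the mean of EXPA7 was 5.37 in control and 4.87 under NaCl, and that of EXPA18 4.96 and 4.84. In wild-type EXPA7 had means of 4.54 and 4.65, and EXPA18 of 4.36 and 4.05. The 1 seed marker, PAP85, a storage protein of the vicilin kind, read 10.29 and 10.45 in OE NaCl, 7.99 and 7.86 in OE control, 6.58 and 6.98 in wild-type NaCl and 9.28 and 9.30 in wild-type control.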

How the data were processed

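The authors scanned 8 ATH1 arrays and deposited 1 table of log2 values, made with Affymetrix Expression Console per the labels. Its version and the summarization method are not given in the sources used here. The methods describe triplicate RNA from an RNeasy kit, whereas the labels name Trizol and give 2 arrays a group, and 1 legend gives another NaCl concentration than the methods. Of 22810 probe sets, 64 controls were left out, and 22746 were tested without further normalization. A single gene is named by 13513 of them, of which 13436 were found in the TAIR10.1 table, several by 503 and none here by 8730.

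Group means were compared with limma 3.58.1 in R 4.3.3, with a spread shared by 4 groups and Benjamini-Hochberg adjustment over all tested probe sets, limit 0.05. The procedure was also run on simulated data, and the outcome is not given here, so it does not vouch for the shared spread. The brightest probe set stood for a gene. All members were named, of each list up to 3 called genes each way per comparison, and up to 3 photosynthesis neighbours. Members and lists were chosen with earlier results of these data known. Alternatives were a fit to the 4 arrays compared, an intensity trend, quantile normalization, centring on the median of all probe sets or of plastid photosynthesis genes, a filter at the 25th percentile, array weights, a replicate block, other call rules, and each array left out. The number of arrays limits the precision.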

Additional observations from a re-analysis of the deposited data

Results flagged for a closer look

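The seed marker PAP85 had opposite NaCl responses in the genotypes. NaCl minus control was 2.45 in OE (adjusted p = 0.000467) and -2.51 in wild-type (adjusted p = 5.3e-04), and the interaction was 4.95 ± 0.24 in limma. That difference between the genotypes is what drew attention to it. Its part in the plastid values was not tested. No interaction was called among the 26 plastid genes.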

How the results depend on the processing

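Among values of single genes under the alternatives, 1935 kept their side of the threshold, 76 lost a call, 43 gained one and 0 called values changed sign. Most of the 1935 were called in neither fit, and such values count there even where their sign changed. Only genes called as deposited with all arrays could lose a call, so the 76 cannot be read against the 1935. After NaCl in OE the genes called numbered 0 to 1 higher and 0 to 1 lower over arrays left out, and the median -0.34 to 0.0525, or -0.32 centred on all probe sets. After NaCl in wild-type, genes called lower (5) numbered 10 with only the 4 arrays compared, 9 with array weights, 2 centred on photosynthesis genes (median 0.10), 3 with the replicate block, 3 with a log2 difference over 1, 0 with the methods' limit and 0 to 5 over arrays left out. Between OE and wild-type in control, genes called higher (4) numbered 0 with a log2 difference over 1, 0 with the methods' limit and 0 to 4 over arrays left out. Those lower (2) numbered 1 centred on all probe sets (median 0.27, 5 higher), 1 with the replicate block, 1 with a log2 difference over 1, 0 with the methods' limit and 0 to 5 over arrays left out. Under NaCl those higher (4) numbered 2 with only the 4 arrays, 2 with a log2 difference over 1, 0 with the methods' limit and 2 to 6 over arrays left out, and those lower (0) 2 centred on photosynthesis genes (median -0.32) and 0 to 2 over arrays left out, with a median of -0.0786 to 0.26. Interactions called higher (0) numbered 1 with an intensity trend (accD) and 0 to 5 over arrays left out, where the median ran from 0.0861 to 0.39, and the median was -0.0909 centred on photosynthesis genes. The cause of these moves was not tested. Centred on all probe sets, the split of all calls between OE and wild-type in control was 3796 higher and 1704 lower, against 1842 and 2738 as deposited, and the median over all probe sets moved to 0.24. After NaCl in OE it was 833 and 841 with that centring and 1026 and 807 with quantile normalization, against 1111 and 531. Centred on photosynthesis genes, it was 1037 and 268 after NaCl in OE, 1769 and 197 after NaCl in wild-type, against 742 and 582, 1097 and 2624 between OE and wild-type in control, and 486 and 3668 between OE and wild-type under NaCl, against 937 and 1120.

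Replicate numbers did not pair the arrays, with correlations of replicate differences between groups from -0.205 to 0.181. With the replicate block, 3 genes were called lower after NaCl in wild-type, 3 higher and 1 lower in control and 3 higher under NaCl. Each gene had 1 probe set, so the mean over probe sets equals the brightest.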
